A study of Homo sapiens with 12 samples.

Results

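The expression of 9 genes of MHC class I antigen presentation was followed in ovarian cancer cells with and without Paeonol (PAE), a phenolic compound of plant origin. They are HLA-B, HLA-C, HLA-E, HLA-F, B2M, TAP1, TAP2, TAPBP and NLRC5, 9 of the 46350 named genes in the count files, matched by symbol. The set was chosen by the measured difference of HLA-E between SKOV3_PAE and SKOV3 libraries, which was large and depended on single libraries. For that reason the comparison of PAE in SKOV3 is described here without a test for every gene of the set. HLA-E is also described without a test between the lines, where the same libraries recur.

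The study sequenced poly-A RNA from SKOV3, an epithelial ovarian cancer line of human origin that is sensitive to cisplatin, and from its cisplatin-resistant counterpart SKOV3/DDP. Both lines were sequenced untreated and after PAE. The 12 libraries form 4 groups of 3, named SKOV3, SKOV3_PAE, SKOV3/DDP and SKOV3/DDP_PAE. No dose or treatment time is given in the labels. The deposited tables of treated libraries carry an unexplained figure in their names that differs between the lines, so whether both lines had the same amount of PAE is not known here, and the groups carry no other stated agent or genetic change. SKOV3/DDP is a single resistant derivative of SKOV3, so a difference between lines is a difference between these 2 cultures. The design text speaks of both biological and experimental triplicates without saying which libraries came from separate cultures, and p-values measure only the spread between these libraries.

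Class I molecules show peptides from inside the cell to CD8+ T cells and are read by natural killer cells. A polymorphic heavy chain (HLA-B, HLA-C) or a less variable one (HLA-E, HLA-F) pairs with the light chain beta-2 microglobulin (B2M). Peptides cut by the proteasome are pumped into the endoplasmic reticulum by the TAP1-TAP2 transporter and loaded with the help of tapasin (TAPBP). NLRC5 is the transactivator of class I genes and acts at their promoters together with the RFX and NF-Y factors. Tumour cells often carry low levels of one or several of these genes.

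Library totals were between 14610008 and 18263479 counts, with a median of 16260043. The untreated SKOV3 libraries stood apart from the other 9 in base composition. A gene's deviation from its mean over the libraries rose with its GC content in those 3 libraries (Spearman's rho across 15683 genes, which are not independent replicates, from 0.694 to 0.705) and fell with it in the other 9 (from -0.569 to -0.341). Fewer named genes had a count in untreated SKOV3 (17951 to 18240) than in the other libraries (21469 to 23194). Log2 fold changes against untreated SKOV3 are therefore given also after each library was corrected for a smooth dependence on GC content and gene length. That dependence is called here the trend. Levels, their sums, values with a library left out and most overlaps of groups are given without the correction. The part of base composition in the differences was not tested. All 5 epithelial markers had counts in every group, but their levels differed. Their sum was 4621 to 5228 CPM in SKOV3, 676 to 1344 in SKOV3_PAE, 10644 to 12864 in SKOV3/DDP and 2337 to 3346 in SKOV3/DDP_PAE. In untreated SKOV3 and SKOV3/DDP, EPCAM had means of 1.26 and 289 CPM, KRT19 7.66 and 1349, and CDH1 7.63 and 442. KRT8 had 3311 and 5279, and KRT18 1498 and 4190. Of the 6 leukocyte markers only CD14 exceeded a mean of 1 CPM, which it did in every group (67.8 in SKOV3, 32.2 in SKOV3_PAE, 2.70 in SKOV3/DDP and 1.70 in SKOV3/DDP_PAE). The sum of the 6 was 63.1 to 72.8 CPM in SKOV3, 23.1 to 40.1 in SKOV3_PAE, 2.60 to 3.92 in SKOV3/DDP and 1.93 to 2.84 in SKOV3/DDP_PAE. PTPRC, which marks leukocytes in general, had no count in SKOV3 or SKOV3/DDP. The 4 fibroblast markers summed to 10.9 to 14.7 CPM in SKOV3, 7.58 to 14.7 in SKOV3_PAE, 3.58 to 4.65 in SKOV3/DDP and 0.220 to 0.564 in SKOV3/DDP_PAE, mostly COL1A1, with no count of COL1A2 in any library. The 3 endothelial markers summed to 3.22 to 5.45, 5.37 to 10.6, 1.33 to 2.19 and 0.343 to 0.658 CPM in the same order, mostly PECAM1 in the SKOV3 groups, with no count of CDH5. The part of these marker differences in the results was not tested. Of 4 genes of ovarian cancer lines, untreated SKOV3 had 306 CPM of ERBB2, 29.7 of PAX8 and 2.09 of MUC16, and no count of WT1. In the same order, SKOV3_PAE had 66.8, 13.2 and 7.41 CPM, SKOV3/DDP 96.5, 4.13 and 0.390, and SKOV3/DDP_PAE 32.2, 2.45 and 0.446. WT1 had 2, 2 and 6 counts in these groups. In bulk RNA, fewer cells with a transcript and less of it per cell cannot be told apart.

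Levels are given as CPM, a gene's counts relative to its library's total as adjusted by TMM normalisation (trimmed mean of M values) over the 12 libraries. Of the 9 genes, 7 passed the filter on low counts, and HLA-F and TAP1 did not. Per kilobase of the coding transcript, the mean level in untreated SKOV3 was 1275 CPM for HLA-C, 612 for HLA-B, 110 for B2M, 15.3 for HLA-E, 14.6 for NLRC5, 3.54 for TAPBP, 0.156 for HLA-F, 0.101 for TAP2 and 0.0477 for TAP1. HLA-E holds its place in that order through 1 library only. HLA-F and TAP1 also had counts in only 1 SKOV3 library each (0, 9 and 0 counts, and 0, 0 and 5). Counts of genes in the MHC region (the HLA genes, TAP1, TAP2, TAPBP and the immunoproteasome genes PSMB8 and PSMB9) are uncertain where near-identical copies or alternate versions of the region share reads, since the handling of such reads is not given in the sources used here.

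**Figure D1:**
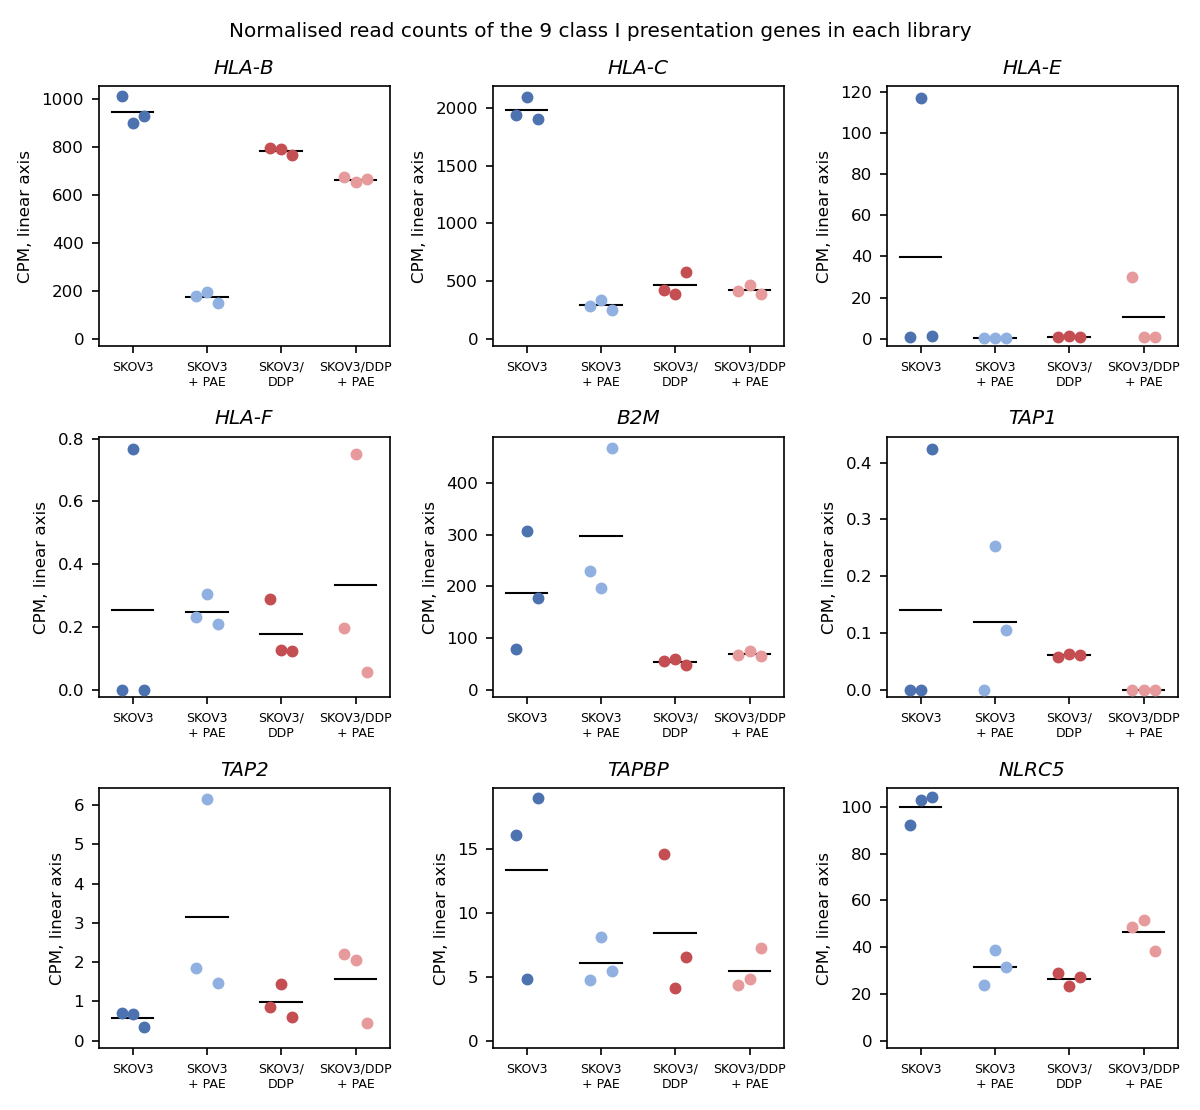
TMM-normalised CPM of each gene (linear vertical axes, one panel a gene) in the 3 libraries of each group (points), with the group mean (horizontal line). HLA-E stands at 117 CPM in 1 SKOV3 library and at 29.9 in 1 SKOV3/DDP_PAE library, and at 1.36 or lower in the other 10.

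HLA-B encodes a classical heavy chain that presents peptides to T cells. Its gene lies at chr6:31353875-31357179 on the minus strand (GRCh38), and its coding transcript has 59.0% GC. The level of HLA-B was 1011, 900 and 929 CPM in SKOV3, 176, 195 and 147 in SKOV3_PAE, 794, 791 and 768 in SKOV3/DDP, and 675, 652 and 665 in SKOV3/DDP_PAE. SKOV3_PAE was the group with the lowest libraries, and no group overlapped another at these levels. Scaled by library size only, SKOV3/DDP and SKOV3/DDP_PAE overlapped. The log2 fold change with PAE in SKOV3 was -2.45 (SE 0.19), and -0.03 with the GC and length trend removed. In SKOV3/DDP the change with PAE was -0.24 (SE 0.18; edgeR quasi-likelihood, adjusted p = 0.345).

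Between the untreated lines HLA-B was called lower in SKOV3/DDP, by a log2 fold change of -0.33 (SE 0.13; edgeR quasi-likelihood, adjusted p = 0.0398), but the direction depended on the scaling. It was 0.42 with scaling by library size only (edgeR adjusted p = 0.0302) and 2.06 with the trend removed (edgeR adjusted p = 1.41e-05), both higher in SKOV3/DDP. The lower call was lost in 8 of the 15 alternatives and reversed in those 2, and the adjusted p ran from 1.41e-05 to 0.245. With PAE in both lines HLA-B was higher in SKOV3/DDP_PAE, by 1.94 (SE 0.18; edgeR quasi-likelihood, adjusted p = 4.96e-07), and all 21 alternatives kept that call.

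HLA-C, the other classical heavy chain of the set and a ligand of natural killer cell receptors, lies at chr6:31268749-31272092 on the minus strand. It has the highest GC content of the 9 coding transcripts, 60.0%. The level of HLA-C was 1944, 2100 and 1902 CPM in SKOV3, 282, 340 and 246 in SKOV3_PAE, 422, 386 and 579 in SKOV3/DDP, and 417, 469 and 388 in SKOV3/DDP_PAE. The 3 untreated SKOV3 libraries were far above the other 9, and the SKOV3_PAE libraries were the lowest. Between SKOV3_PAE and SKOV3 the log2 fold change was -2.78 (SE 0.22), and -0.20 with the trend removed. The treated and untreated SKOV3/DDP groups overlapped, at -0.12 (SE 0.21; edgeR quasi-likelihood, adjusted p = 0.709).

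In the untreated lines HLA-C was lower in SKOV3/DDP than in SKOV3, with a log2 fold change of -2.16 (SE 0.19; edgeR quasi-likelihood, adjusted p = 1.13e-05). With the trend removed the value was 0.35 and was not called (edgeR adjusted p = 0.104). With PAE in both lines HLA-C was higher in SKOV3/DDP_PAE, by 0.55 (SE 0.21; edgeR quasi-likelihood, adjusted p = 0.0347). That call was lost in 10 of 21 alternatives, among them leaving out SKOV3_PAE replicate 1 or 3, SKOV3/DDP_PAE replicate 1 or 2, or SKOV3 replicate 3 (edgeR adjusted p from 0.0530 to 0.127 in these 5).

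Promoters of class I genes share an upstream module at which NLRC5, RFX and NF-Y act. The stretches shown are those of the heavy chain genes and of B2M, so that the shared and differing motifs can be read beside their levels. They run from 160 to 31 bases before the transcript start, 5′ to 3′ on the gene's own strand, from RefSeq on GRCh38.p14. HLA-B is at chr6:31357210-31357339 and HLA-C at chr6:31272123-31272252, both on the minus strand, with HLA-F at chr6:29723274-29723403 and B2M at chr15:44711357-44711486, both on the plus strand. Capitals mark matches, on either strand, to the Y box (CCAAT, bound by NF-Y), the X2 element (TGACG) and the interferon-stimulated response element, or ISRE.
HLA-B: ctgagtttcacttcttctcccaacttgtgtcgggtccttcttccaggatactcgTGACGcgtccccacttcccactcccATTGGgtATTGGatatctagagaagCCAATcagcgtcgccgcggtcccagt
HLA-C: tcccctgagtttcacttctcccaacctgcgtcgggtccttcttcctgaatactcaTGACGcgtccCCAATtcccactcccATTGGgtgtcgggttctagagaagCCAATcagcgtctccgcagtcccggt
HLA-F: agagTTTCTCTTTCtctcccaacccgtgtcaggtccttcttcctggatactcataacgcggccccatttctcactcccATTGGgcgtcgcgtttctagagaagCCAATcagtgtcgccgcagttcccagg
B2M: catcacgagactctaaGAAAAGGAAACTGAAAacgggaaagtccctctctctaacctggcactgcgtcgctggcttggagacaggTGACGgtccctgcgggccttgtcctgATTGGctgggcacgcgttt
The HLA-B and HLA-C stretches both held an X2 match (106 and 105 bases before the start) and a Y box beginning 56 bases before it. Neither matched the strict ISRE letters, which does not show that they lack such an element. HLA-F had Y boxes at 82 and 57 bases and an ISRE match at 156 bases, and no TGACG in its window. B2M held a single Y box at 49 bases, an X2 match at 75 bases and ISRE matches at 144 and 138 bases that overlap each other. A promoter was matched for 7 of the 9 genes, all but HLA-E and NLRC5. In the 250 bases before the start, a Y box was found in 5 of the 7 against 32.0% of 35116 promoters, X2 in 4 against 21.2%, and ISRE in 5 against 3.02%. The GAS motif (TTCNNNGAA), an interferon-gamma response element in other genes, was found in TAP1 only, against 6.57% of promoters. It lay in window 2 of TAP1, which belongs to another start site, and window 1 had no match. The share of 6.57% counts each promoter window alone. Such matches describe letters in a window and are not measured sites.

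HLA-E, at chr6:30489508-30494194 on the plus strand, encodes the heavy chain that carries leader peptides of other class I chains to the CD94-NKG2 receptors of natural killer cells. Its counts were 8, 1374 and 16 in SKOV3, 4, 7 and 6 in SKOV3_PAE, 13, 19 and 17 in SKOV3/DDP, and 610, 18 and 16 in SKOV3/DDP_PAE. SKOV3 replicate 2 and SKOV3/DDP_PAE replicate 1 were high, and each was far from the other libraries of its own group. As levels, these 12 values were 0.709, 117 and 1.36 CPM, then 0.232, 0.355 and 0.316, then 0.750, 1.20 and 1.04, and 29.9, 0.846 and 0.880. The group mean of 39.7 ± 67.0 CPM (SD, n = 3) in SKOV3 was thus that of 1 library. Total counts of the high libraries were 18263479, the most of the 12, and 17110718. The same libraries had 900 and 675 CPM of HLA-B, near their replicates.

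The log2 fold change of HLA-E with PAE in SKOV3 was -7.00 (SE 1.88), the value that chose the set. It was -1.75 without SKOV3 replicate 2 and between -7.58 and -6.86 without any other library. With the trend removed it was -5.96. In SKOV3/DDP the corresponding value was 3.40 (SE 1.58; edgeR quasi-likelihood, adjusted p = 0.127), and the groups overlapped. SKOV3 replicate 2 also entered the fit behind this p, through the filter, the scaling and the estimate of spread. The p is therefore not independent of the value that chose the set. Without SKOV3/DDP_PAE replicate 1 the SKOV3/DDP value was -0.16 (edgeR adjusted p = 0.980). The adjusted p of that comparison was 0.0279 when SKOV3 replicate 2 was left out and 2.09e-16 with no filter on low counts, both from edgeR. Across its alternatives it ran from 2.09e-16 to 0.980.

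Between the lines HLA-E had a log2 fold change of -5.39 (SE 1.77) in untreated SKOV3/DDP against SKOV3, and -0.13 without SKOV3 replicate 2. With the trend removed it was -4.29. For SKOV3/DDP_PAE against SKOV3_PAE it was 5.09 (SE 1.80), and 1.49 without SKOV3/DDP_PAE replicate 1.

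**Figure D2:**
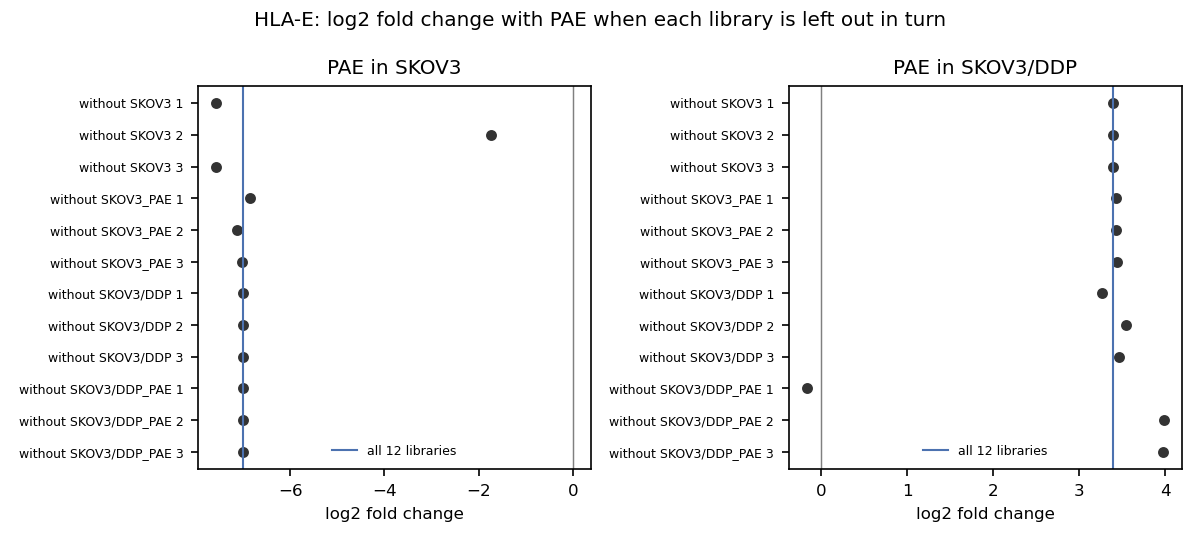
Log2 fold change of HLA-E with PAE in SKOV3 (left) and in SKOV3/DDP (right) when each library named on the vertical axis was left out (points), with the value of all 12 libraries (blue line) and 0 (grey line). Leaving out SKOV3 replicate 2 moved the SKOV3 value from -7.00 to -1.75, and leaving out SKOV3/DDP_PAE replicate 1 moved the SKOV3/DDP value from 3.40 to -0.16.

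HLA-F, a heavy chain with a restricted peptide repertoire, lies at chr6:29723434-29740355 on the plus strand. It had 0, 9 and 0 counts in SKOV3, 4, 6 and 4 in SKOV3_PAE, 5, 2 and 2 in SKOV3/DDP, and 4, 16 and 1 in SKOV3/DDP_PAE. All 4 groups overlapped, and the gene was too low to be tested. The antisense gene HLA-F-AS1 overlaps it, and since the strand of counting is not given in the sources used here, reads of the pair cannot be told apart.

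B2M, the light chain needed by every class I heavy chain, lies at chr15:44711492-44718145 on the plus strand and has the lowest GC content of the 9, 39.4%. Its level was 78.5, 308 and 177 CPM in SKOV3, 230, 196 and 468 in SKOV3_PAE, 55.7, 59.6 and 48.0 in SKOV3/DDP, and 67.0, 75.9 and 64.5 in SKOV3/DDP_PAE. The SKOV3 libraries spread widely, and at these levels all SKOV3/DDP libraries of either treatment were below all SKOV3 ones. Scaled by library size only, SKOV3 replicate 1 (51.1 CPM) fell below the lowest SKOV3/DDP library (52.2). SKOV3_PAE and SKOV3 overlapped, with a log2 fold change of 0.67 (SE 0.39), which became -1.68 with the trend removed. By library size only, SKOV3_PAE lay wholly above SKOV3. In SKOV3/DDP the treated and untreated libraries did not overlap, yet the value of 0.35 (SE 0.39) was not called (edgeR quasi-likelihood, adjusted p = 0.555).

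B2M was lower in SKOV3/DDP than in SKOV3 in both line comparisons. The log2 fold change was -1.86 (SE 0.43; edgeR quasi-likelihood, adjusted p = 0.00355) without PAE and -2.11 (SE 0.41; edgeR quasi-likelihood, adjusted p = 0.000486) with PAE. Both calls and both directions held in every alternative run, 15 of 15 and 21 of 21. With the trend removed they were -3.75 and -1.91.

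TAP1, a subunit of the peptide transporter, lies at chr6:32845209-32853704 on the minus strand. It had 5 counts in all in SKOV3, 7 in SKOV3_PAE, 3 in SKOV3/DDP and 0 in SKOV3/DDP_PAE, where 0 counts allow up to 0.0595 CPM over the group (counting error only). Its partner TAP2 lies next to it at chr6:32821831-32838739, on the same strand. Counts of TAP2 were 8, 8 and 4 in SKOV3, 32, 121 and 28 in SKOV3_PAE, 15, 23 and 10 in SKOV3/DDP, and 45, 44 and 8 in SKOV3/DDP_PAE. SKOV3_PAE replicate 2 was the highest library, and the SKOV3_PAE group lay wholly above SKOV3.

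TAP2 had a log2 fold change with PAE in SKOV3 of 2.44 (SE 0.70), and 1.48 with the trend removed. In SKOV3/DDP it was 0.69 (SE 0.65; edgeR quasi-likelihood, adjusted p = 0.464), and between the treated lines -1.0 (SE 0.62; edgeR adjusted p = 0.189). Between the untreated lines it was 0.69 (SE 0.50; edgeR adjusted p = 0.223), and was called at 1.41 with scaling by library size only (edgeR adjusted p = 0.0200). With the trend removed that value was -0.24 (edgeR adjusted p = 0.695).

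TAPBP, the chaperone tapasin, which bridges TAP and the heavy chain during peptide loading, lies at chr6:33299694-33314254 on the minus strand. Its level was 16.1, 4.86 and 19.0 CPM in SKOV3, 4.76, 8.13 and 5.42 in SKOV3_PAE, 14.6, 4.10 and 6.55 in SKOV3/DDP, and 4.32, 4.79 and 7.21 in SKOV3/DDP_PAE. SKOV3 replicate 2, the library with high HLA-E, was the lowest of its group. All 4 groups overlapped one another. The log2 fold change was -1.12 (SE 0.50) with PAE in SKOV3, and 0.33 with the trend removed. It was -0.63 (SE 0.50) with PAE in SKOV3/DDP, -0.71 (SE 0.58) between the untreated lines and -0.17 (SE 0.50) between the treated ones, with edgeR quasi-likelihood adjusted p of 0.373, 0.270 and 0.792.

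NLRC5, the transactivator, lies at chr16:56989557-57083520 on the plus strand. Its level was 92.1, 103 and 104 CPM in SKOV3, 23.8, 38.8 and 31.3 in SKOV3_PAE, 29, 23.4 and 27.2 in SKOV3/DDP, and 48.8, 51.8 and 38.5 in SKOV3/DDP_PAE. Untreated SKOV3 was high and tight, and within SKOV3/DDP the treated libraries lay wholly above the untreated ones. In that line NLRC5 rose with PAE by a log2 fold change of 0.80 (SE 0.21; edgeR quasi-likelihood, adjusted p = 0.0133), and by 1.03 with the trend removed. All 21 alternatives kept this call, with edgeR, DESeq2 or limma-voom adjusted p from 0.00272 to 0.0459. In SKOV3 the value was -1.67 (SE 0.22), and -0.38 with the trend removed.

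In the untreated lines NLRC5 was lower in SKOV3/DDP than in SKOV3, by -1.97 (SE 0.18; edgeR quasi-likelihood, adjusted p = 1.27e-05) and by -0.91 with the trend removed (edgeR adjusted p = 0.00237). With PAE in both lines it was higher in SKOV3/DDP_PAE, by 0.57 (SE 0.21; edgeR quasi-likelihood, adjusted p = 0.0354), although SKOV3_PAE replicate 2 and SKOV3/DDP_PAE replicate 3 overlapped. That call was lost in 10 of 21 alternatives, among them leaving out SKOV3_PAE replicate 1 or 3, SKOV3/DDP replicate 1 or 3, or SKOV3/DDP_PAE replicate 1 or 2 (edgeR adjusted p from 0.0513 to 0.164 in these 6).

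Set side by side, the heavy chains HLA-B and HLA-C, HLA-E and NLRC5 lay wholly lower with PAE in SKOV3 and TAP2 wholly higher. B2M and TAPBP overlapped, although B2M lay wholly higher when scaled by library size only. The 5 genes that did not overlap, of the 7 measured above the filter, compare with 77.4% of all 17133 genes (33.8% lower and 43.5% higher). HLA-E is among the 5 because the set was chosen on it, and nothing is read from this count. The median log2 fold change was -1.67 over the 7 and 0.48 over all genes, and -0.20 and 0.19 with the trend removed. Across all genes the log2 fold change followed GC content with a Spearman's rho of -0.787, and with the trend removed 1 of the 7 did not overlap, against 60.3% of 15683 genes. Scaling by library size only moved the median of all genes to 1.36.

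With PAE in SKOV3/DDP, 1 of the 7 genes was called, NLRC5, higher. Of all genes tested there, 26.4% were called (11.8% higher and 14.7% lower). The median was 0.35 over the 7 and 0 over all genes. At TMM-normalised levels, B2M and NLRC5 lay wholly higher with PAE and HLA-B wholly lower, 3 of the 7, against 45.1% of all genes (21.4% higher and 23.7% lower). Scaled by library size only, HLA-B overlapped. In this comparison the correlation of log2 fold change with GC content was weaker across genes, with a rho of -0.170.

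Between the untreated lines, HLA-B, HLA-C, B2M and NLRC5 were called lower in SKOV3/DDP, 4 of the 6 tested, and TAP2 and TAPBP were not called. The call of HLA-B is the one whose direction depended on the scaling. The background is 84.7% of 15323 genes (46.1% higher and 38.5% lower). At TMM-normalised levels the libraries of the lines did not overlap for 4 of the 7 measured genes, all lower in SKOV3/DDP. The share of all genes was 86.5% (47.9% higher and 38.6% lower). This too depended on the scaling. By library size only, HLA-C and NLRC5 stayed wholly lower, HLA-B and TAP2 lay wholly higher, and B2M overlapped. The median of the 7, HLA-E among them, was -1.86 against 0.41 for all genes. With the trend removed, B2M and NLRC5 were lower and HLA-B higher, and the rho of log2 fold change with GC content was -0.611 before the removal. Scaling by library size only moved the median of all genes to 1.16.

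Between the treated lines, HLA-B, HLA-C and NLRC5 were called higher in SKOV3/DDP_PAE and B2M lower, 4 of the 6 tested, against 54.5% of all genes (27.5% higher and 27.1% lower). HLA-B, HLA-C and HLA-E lay wholly higher and B2M wholly lower, 4 of the 7, against 61.2% (31.4% higher and 29.8% lower). The rho with GC content was -0.00392 in this comparison, and removing the trend changed none of the 4 calls. Leaving out both libraries with high HLA-E, an alternative chosen after seeing the data, left 2 calls, those of HLA-B and B2M. Neither group of this comparison holds an untreated SKOV3 library. Those libraries still entered its fit of 12 through the filter, the scaling and the estimate of spread, and the 6 treated libraries alone gave 2 calls. This comparison shares the SKOV3/DDP_PAE libraries with the comparison of PAE in SKOV3/DDP and the SKOV3_PAE libraries with that of PAE in SKOV3.

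**Figure D3:**
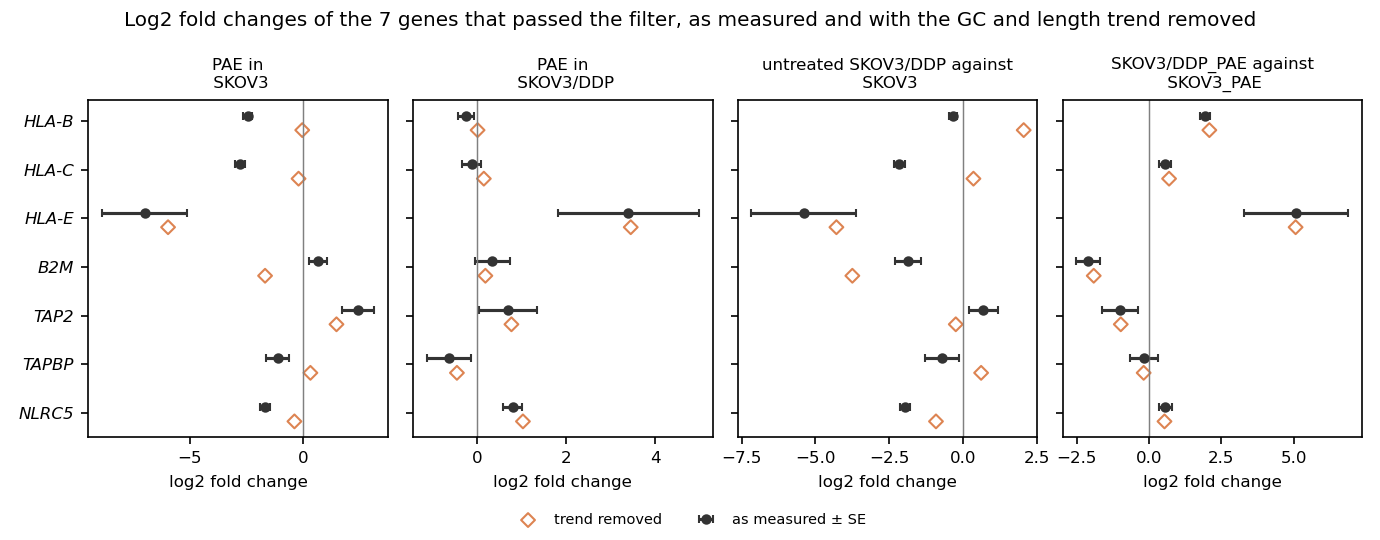
Log2 fold changes of the 7 genes that passed the filter in the 4 comparisons (horizontal axes differ in range), as measured with SE (filled) and with the GC content and length trend removed (open). In the 2 comparisons with untreated SKOV3 the open symbols of HLA-B stand at -0.03 and 2.06 against -2.45 and -0.33 as measured, while between the treated lines they stand at 2.09 against 1.94.

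Of 20 further genes of class I presentation, 17 passed the filter. With PAE in SKOV3/DDP, 2 of the 17 rose and 3 fell, against 11.8% and 14.7% of all genes. NFYC, an NF-Y subunit, rose by 1.38 (SE 0.21) and IRF1, an interferon-response factor, by 0.61 (SE 0.21), with edgeR adjusted p of 0.000406 and 0.0443. The peptide-trimming enzyme ERAP2 fell by 1.12 (SE 0.30), the proteasome activator subunit PSME2 by 0.91 (SE 0.23) and RFX5, a subunit of the RFX factor, by 0.73 (SE 0.18). The other subunits of the 2 factors that work with NLRC5, RFXAP, RFXANK, NFYA and NFYB, were not called. The median of the 17 was -0.30.

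In untreated SKOV3/DDP against SKOV3, 9 of the 17 were called higher and 6 lower, and 6 and 8 with the trend removed. Of all genes, 46.1% were called higher and 38.5% lower. ERAP2 had 7, 1 and 3 counts in SKOV3 and 2636, 1307 and 1964 in SKOV3/DDP. That is a log2 fold change of 8.45 (SE 0.50; edgeR quasi-likelihood, adjusted p = 1.72e-06), and 5.73 with the trend removed. The immunoproteasome subunit PSMB10 went the other way, with 271, 317 and 237 CPM in SKOV3 and 6.46, 7.26 and 8.14 in SKOV3/DDP. Its log2 fold change was -5.30 (SE 0.21; edgeR quasi-likelihood, adjusted p = 6.75e-07), and -2.52 with the trend removed. Of the other immunoproteasome subunits, PSMB9 had 21 counts in SKOV3 and 0 in SKOV3/DDP, and PSMB8 had 0 in all 12 libraries, as did HLA-G.

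With PAE in both lines, 4 of the 17 were called higher and 7 lower in SKOV3/DDP_PAE, against 27.5% and 27.1% of all genes. ERAP2 was again higher, by 3.07 (SE 0.32), and PSMB10 lower, by -2.70 (SE 0.22), with edgeR adjusted p of 1.59e-06 and 1.11e-07. In SKOV3, where the effect of PAE is described without a test, 7 of the 17 lay wholly higher and 7 wholly lower, against 43.5% and 33.8% of all genes. Their median was 0.89, and of -0.32 with the trend removed.

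Class II genes, which present peptides to CD4+ T cells and are mostly used by professional antigen-presenting cells, differed between the lines in another way. The summed level of 10 class II genes was 161 to 219 CPM in SKOV3, 39.9 to 58.0 in SKOV3_PAE, 2.34 to 3.98 in SKOV3/DDP and 1.69 to 2.86 in SKOV3/DDP_PAE. HLA-DRB1 had 4069 counts in SKOV3 and 1101 in SKOV3_PAE, and 2 and 5 in the SKOV3/DDP groups. The class II transactivator CIITA, a relative of NLRC5, had 36.9 ± 2.1 CPM in SKOV3 and 2.81 ± 0.65 in SKOV3/DDP (SD, n = 3). The log2 fold change was -3.77 (SE 0.26; edgeR quasi-likelihood, adjusted p = 3.21e-06), and -3.84 with the trend removed. All 6 class II genes that passed the filter were called lower in untreated SKOV3/DDP, with or without the trend removed. All 7 that passed it in the fit of 12 libraries were called lower in SKOV3/DDP_PAE than in SKOV3_PAE. Of all genes, 38.5% and 27.1% were called lower there. In SKOV3/DDP, CD74, HLA-DRA and HLA-DPB1 had 0 counts, HLA-DQB1 1 and HLA-DRB1 2. Such genes passed the filter only through the SKOV3 groups and could only be called lower, so nothing is read from these calls. HLA-DMA went the other way, with 0 counts in SKOV3 and 21 in SKOV3/DDP, and did not pass the filter.

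Genes whose level moved most like that of HLA-E were sought among 9625 protein-coding genes of at least 10 CPM on average. The likeness was Pearson's r of log2(CPM + 0.5) over the 12 libraries, which share 4 groups and their base composition, and it is a description. The highest values were 0.77 for COA5, 0.77 for RPL26L1, 0.76 for COA1, 0.74 for RPL24 and 0.73 for OCIAD2. Over the 10 libraries with low HLA-E these were 0.59, 0.43, 0.74, 0.90 and 0.73 in the same order. None of the 5 had a library as far from its group as HLA-E. In SKOV3 replicate 2, COA5 was at 51.5 CPM against 15.9 to 36.2 in the 10 libraries with low HLA-E. In SKOV3/DDP_PAE replicate 1, the other library with high HLA-E, COA5 was at 34.5 CPM. There all 5 genes lay within their range over those 10 libraries. Within the set, the highest r was 0.88 for HLA-C with NLRC5 (Spearman's rho 0.66), and that of HLA-B with NLRC5 was 0.48 (rho 0.45).

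The length that the count files give for a gene was longer than its span on the chromosome for 6 of the 9 genes. For HLA-E it was 17194 bases over a span of 4687, and for HLA-B 9212 over 3305. HLA-C, TAP1, TAP2 and TAPBP were also longer, and HLA-F, B2M and NLRC5 were not. Such lengths occurred in 3.08% of the 46350 named genes, and in 268 of 384 genes (69.8%) of the MHC region, taken as chromosome 6 from 28000000 to 34000000.

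Within a group, the ratio of the highest to the lowest library (CPM + 0.5, largest of the 4 groups) was 97.2 for HLA-E, 3.91 for B2M, 3.64 for TAPBP, 3.37 for TAP2, 1.62 for NLRC5, 1.5 for HLA-C and 1.32 for HLA-B. Among genes of at least 10 CPM on average, a ratio of 8 or more was found for 7 of 19 genes with a length over their span (36.8%) and for 121 of 9929 others (1.22%). Outside the MHC region these were 4 of 11 and 120 of 9915. HLA-E is 1 of the 7 and reached 10 CPM on average only through its high libraries, and without it the count was 6 of 18 (33.3%). HLA-B and HLA-C were among the genes with a long length and a ratio under 8. Whether reads of HLA-E were assigned differently between libraries was not tested.

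**Figure D4:**
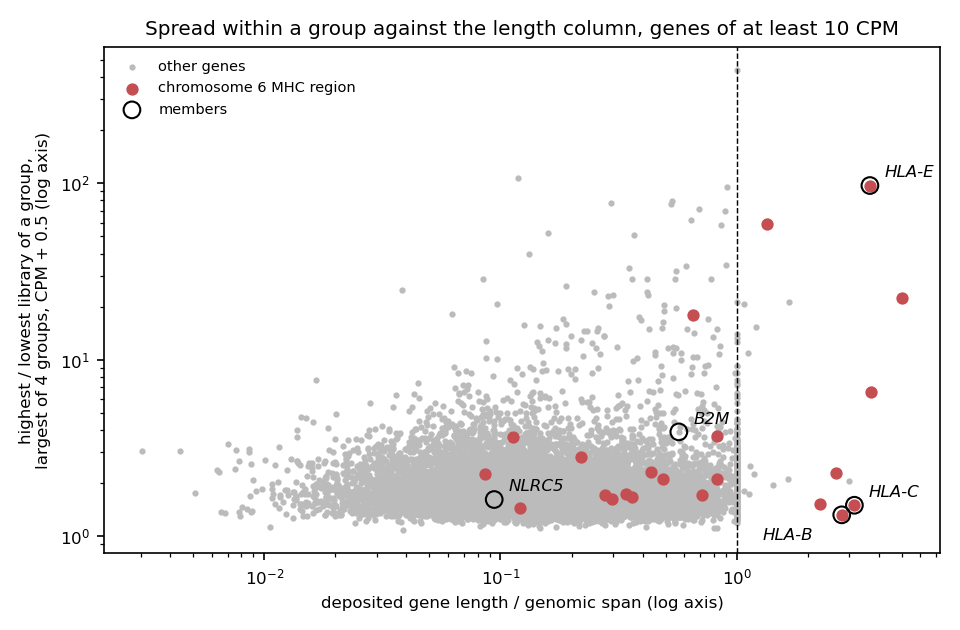
Deposited gene length over genomic span (horizontal, log axis) and the largest within-group ratio of the highest to the lowest library (vertical, log axis), for genes with a mean of at least 10 CPM. Genes of the MHC region are red and the genes of the set are ringed. HLA-E lies at a ratio of 97.2 right of the dashed line of equal length and span, and HLA-B and HLA-C lie right of it at 1.32 and 1.5.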

How the data were processed

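Per the labels, mRNA was captured on poly-T beads before library preparation with a NEBNext Ultra kit. For each library the authors deposited a table of raw counts by gene, in whole numbers, for 47219 loci with GRCh38 coordinates. The submitters' processing notes name HISAT2 2.0.5, StringTie 1.3.3b, DESeq2 and edgeR without their roles. The counting program, the strand of counting and the treatment of reads from near-identical genes are not given in the sources used here. The 869 loci with no gene name held 0.126% to 0.678% of a library's counts and were left out.

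Counts were analysed in R 4.3.3 with edgeR 4.0.16 (filterByExpr, TMM, quasi-likelihood test, Benjamini-Hochberg adjustment over all genes tested, called at 0.05). The 12 libraries entered 1 fit of 17133 genes for PAE in SKOV3/DDP and for SKOV3/DDP_PAE against SKOV3_PAE. The 6 untreated libraries had a fit of 15323 genes of their own. SE values are |log2 fold change| over the root of F. Limma 3.58.1 (voom) and DESeq2 1.42.0 were alternatives. The GC content and length trend was a spline with 5 degrees of freedom on the longest coding GENCODE transcript, removed as offsets. Only the main edgeR fit was tested on simulated counts, in which most genes were unchanged and no dependence on GC content was put in. The trend removal, the other scaling, limma-voom and DESeq2 were not tested in this way. No pair of libraries of a group agreed within sampling noise (chi-square per gene from 16.6 to 101).

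The genes, the lists and the rule for naming genes were chosen with earlier results of these data known. All 9 genes, any gene of the class I and class II lists, and the 5 genes most like HLA-E were named. A few genes of these lists are not reported here and are in no count.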

Additional observations from a re-analysis of the deposited data

Results flagged for a closer look

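NLRC5 moved in opposite directions with PAE in the 2 lines. Its log2 fold change was -1.67 in SKOV3, where all 3 treated libraries lay below the untreated ones, and 0.80 in SKOV3/DDP, where all 3 lay above. The difference between the lines was not tested, since the genes were chosen on the comparison in SKOV3. With the GC content and length trend removed the values were -0.38 and 1.03.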

How the results depend on the processing

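The results were recomputed under other scalings, filters, tools, fits and left-out libraries, which gave 606 alternative values. Of these, 524 were taken as kept, 28 lost a call, 3 gained one, 35 moved and 16 reversed. A tested fold change was kept if its direction and its side of the threshold stayed. An untested one was kept if its direction stayed and it moved by less than the spread between replicates. A count of genes was also kept where it changed only a little, such as 3 or 5 against 4 called between the untreated lines. The cause of these changes was not tested. Leaving out a library also reran the filter, the scaling and the estimate of spread on the libraries that remained.

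With scaling by library size only, HLA-C with PAE in SKOV3/DDP reversed to 0.042, and HLA-B and TAPBP between the untreated lines to 0.42 and 0.047. The count called between the treated lines fell from 4 to 2. With the GC content and length trend removed, B2M and TAPBP with PAE in SKOV3 reversed to -1.68 and 0.33, HLA-B and HLA-C with PAE in SKOV3/DDP to 0.012 and 0.15, and HLA-B, HLA-C, TAP2 and TAPBP between the untreated lines to 2.06, 0.35, -0.24 and 0.61. The genes not overlapping with PAE in SKOV3 fell from 5 to 1. With no filter on low counts, 2 genes were called with PAE in SKOV3/DDP and 2 between the treated lines. With at least 10 counts in every library, 3 of the genes did not overlap, and HLA-E was removed by that filter. The fit of the 6 SKOV3 libraries alone gave no value for HLA-E, which failed its filter. The 6 treated libraries alone gave 2 calls. Limma-voom gave -3.95 for HLA-E with PAE in SKOV3.

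Leaving out 1 library at a time, the genes called ranged from 1 to 2 with PAE in SKOV3/DDP, from 3 to 4 between the untreated lines and from 2 to 4 between the treated ones. The genes not overlapping with PAE in SKOV3 ranged from 5 to 7, and HLA-E there from -7.58 to -1.75. TAPBP ranged from -0.42 to 0.079 between the treated lines, reversing without SKOV3_PAE replicate 2, and from -0.96 to 0.061 with PAE in SKOV3/DDP, reversing without SKOV3/DDP replicate 1. HLA-C with PAE in SKOV3/DDP reversed to 0.10 without SKOV3/DDP replicate 3, and HLA-E, with a range of -0.16 to 3.99, reversed without SKOV3/DDP_PAE replicate 1. In an alternative chosen after seeing the data, both libraries with over 100 HLA-E counts were left out. HLA-E then was -1.75 with PAE in SKOV3 and -0.20 in SKOV3/DDP, and 2 genes were called between the treated lines.

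The replicate numbers of the titles were not treated as pairs. The deviations of same-numbered libraries correlated from -0.219 to 0.157. Differently numbered libraries were not set beside them, so these values cannot decide whether same-numbered libraries were prepared together. With the replicate number as a block, HLA-E was -6.13 with PAE in SKOV3, 4 genes did not overlap there, and 1, 3 and 3 genes were called in the other comparisons. Counts under 20 in some or all libraries limit HLA-E, HLA-F, TAP1 and TAP2. For TAP2 these include all SKOV3 libraries (8, 8 and 4 counts). Intervals and limits cover counting error only.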
